A study of Homo sapiens with 6 samples.

Results

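Adhesion G protein-coupled receptors were described in H69 cells, a line of human cholangiocytes, the epithelial cells of the bile duct, immortalised with the SV40 large T antigen. The set holds 9 genes taken by name from a table of 64253 genes, on reference chromosomes alone. The genes were chosen by family with their read counts and fold changes in these same 6 libraries already known, so their changes are given as a description and without p-values. The files name the genes as before the family was renamed: GPR56 (now ADGRG1), GPR126 (ADGRG6), GPR110 (ADGRF1), GPR116 (ADGRF5), GPR124 (ADGRA2), GPR125 (ADGRA3), CD97 (ADGRE5), LPHN1 (ADGRL1) and LPHN2 (ADGRL2). RNA sequencing compared 3 libraries of cells given vehicle with 3 of cells given recombinant TGF-beta (10 ng/ml, 16 h), all at passages 30 to 32 of 1 line. TGF-beta is a cytokine that acts through SMAD transcription factors, and the series asked which genes it changes in cholangiocytes. The labels do not say that replicates were separate cultures, so the spread between them may be technical.

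Adhesion receptors join a long extracellular part, which binds matrix proteins or proteins of neighbouring cells, to the membrane-spanning part of a G protein-coupled receptor. Many cut themselves at a site just outside the membrane, and the fragments stay attached. When the outer fragment is pulled away, the exposed end of the inner fragment acts as a tethered agonist and the receptor signals to G proteins. The family is known for sensing contact with matrix and with other cells in epithelium, nerve, blood vessels and leukocytes.

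Promoter sequence is shown for 4 receptor genes: GPR56, the member with the largest rise, GPR126, the most abundant in vehicle together with CD97, and GPR110 and GPR116, which are neighbours and were both lower. RefSeq promoter entries on GRCh38.p14 matched 6 of the 9 members. Each stretch runs 5′ to 3′ on the gene's strand and ends where an annotated exon begins, and capitals mark matches to the motifs searched.
ADGRG1 (GPR56), chr16:57619488-57619692, plus strand: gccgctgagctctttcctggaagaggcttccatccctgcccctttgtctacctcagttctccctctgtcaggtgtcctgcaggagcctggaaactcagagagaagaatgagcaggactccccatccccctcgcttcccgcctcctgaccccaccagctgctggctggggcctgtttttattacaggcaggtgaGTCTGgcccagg
ADGRG6 (GPR126), chr6:142301757-142301853, plus strand: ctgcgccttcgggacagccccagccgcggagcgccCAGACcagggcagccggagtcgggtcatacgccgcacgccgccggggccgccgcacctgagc
ADGRF1 (GPR110), chr6:47042364-47042582, minus strand: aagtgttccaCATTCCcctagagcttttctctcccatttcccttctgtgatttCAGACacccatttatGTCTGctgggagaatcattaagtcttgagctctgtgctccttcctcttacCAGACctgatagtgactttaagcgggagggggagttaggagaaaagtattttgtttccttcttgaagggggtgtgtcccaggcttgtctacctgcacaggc
ADGRF5 (GPR116), chr6:46954944-46955189, minus strand: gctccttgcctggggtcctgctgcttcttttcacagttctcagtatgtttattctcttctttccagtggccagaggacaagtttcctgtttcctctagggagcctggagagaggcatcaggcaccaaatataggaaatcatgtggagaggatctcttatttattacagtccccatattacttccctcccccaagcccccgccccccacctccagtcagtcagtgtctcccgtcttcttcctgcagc

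The motifs were the SMAD box CAGAC, the AP-1 site TGANTCA and the TEAD site GGAATG, on both strands, in the 250 bases before each RefSeq transcript start. These windows run past the printed stretches into exons where other transcripts start earlier. CAGAC or its reverse complement stood in 38.0% of all 35116 promoter windows of that length, TGANTCA in 6.57% and GGAATG in 11.9%. The ADGRG1 window above held 1 CAGAC match, 57 bases before the start, and the ADGRG6 window held 1, 215 bases before it. The ADGRF1 window held 3 CAGAC matches and 1 GGAATG match. The ADGRF5 window shown held no match to any of the 3 motifs, and the window of its other start held 1 CAGAC. The promoter entries give ADGRG1 3 RefSeq starts, each with CAGAC in its window. The window of the most downstream start, at position 57628630, also held 2 TGANTCA matches, 192 and 113 bases before the start. All 3 starts lie inside the counted gene, which begins at 57610652, so the bases just before that position were not searched. No match overlapped a match to another motif in the windows of ADGRG1, ADGRG6, ADGRF1 or ADGRF5. Matches are a description of the letters, and gene counts do not tell which start was used.

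The libraries held 37205862 to 54160521 counted reads each. Levels are given as CPM (counts scaled to library size with TMM factors), and between genes as the authors' RPKM, which also divides by gene length. Of 20992 genes tested with edgeR's quasi-likelihood test, 40.1% were called at an adjusted p under 0.05, 19.7% higher and 20.4% lower with TGF-beta, and the CPM of the conditions did not overlap for 52.3%. Vehicle replicate 1 stood apart on the second principal component (36.6, against -14.9 and -18.7 for vehicle replicates 2 and 3). Fold changes without it are given for some of the named genes only. The 6 listed markers of cholangiocytes summed to 1746 to 2198 CPM in vehicle against 3124 to 3463 CPM with TGF-beta, nearly all from KRT7 and KRT19, while CFTR had no read in any library. Among them KRT7 alone was called higher (1538 to 2966 CPM), SOX9 (log2 -1.76) and EPCAM (-0.48) were called lower, and KRT19 (-0.17) was not called. The negative value of KRT19 rests on vehicle replicate 1. Its vehicle replicates 1 to 3 held 435, 267 and 275 CPM, against 279, 275 and 313 CPM with TGF-beta. In these bulk libraries, fewer cells of a type and less RNA per cell cannot be told apart.

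TGF-beta libraries held more GPR56 and GPR124 message and less GPR126, CD97, GPR110, GPR116 and, by a small margin, LPHN1. By edgeR's test 2 of the 9 members were called higher, 5 lower and 2 not called, against 40.1% called among all genes. Nothing is read from that count, because the members were listed with this comparison known. The median log2 fold change over the 9 was -0.21, and it was -0.01 over all genes tested. All 9 passed the filter on low counts, but GPR110 and GPR116 passed it through their vehicle libraries alone.

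**Figure D1:**
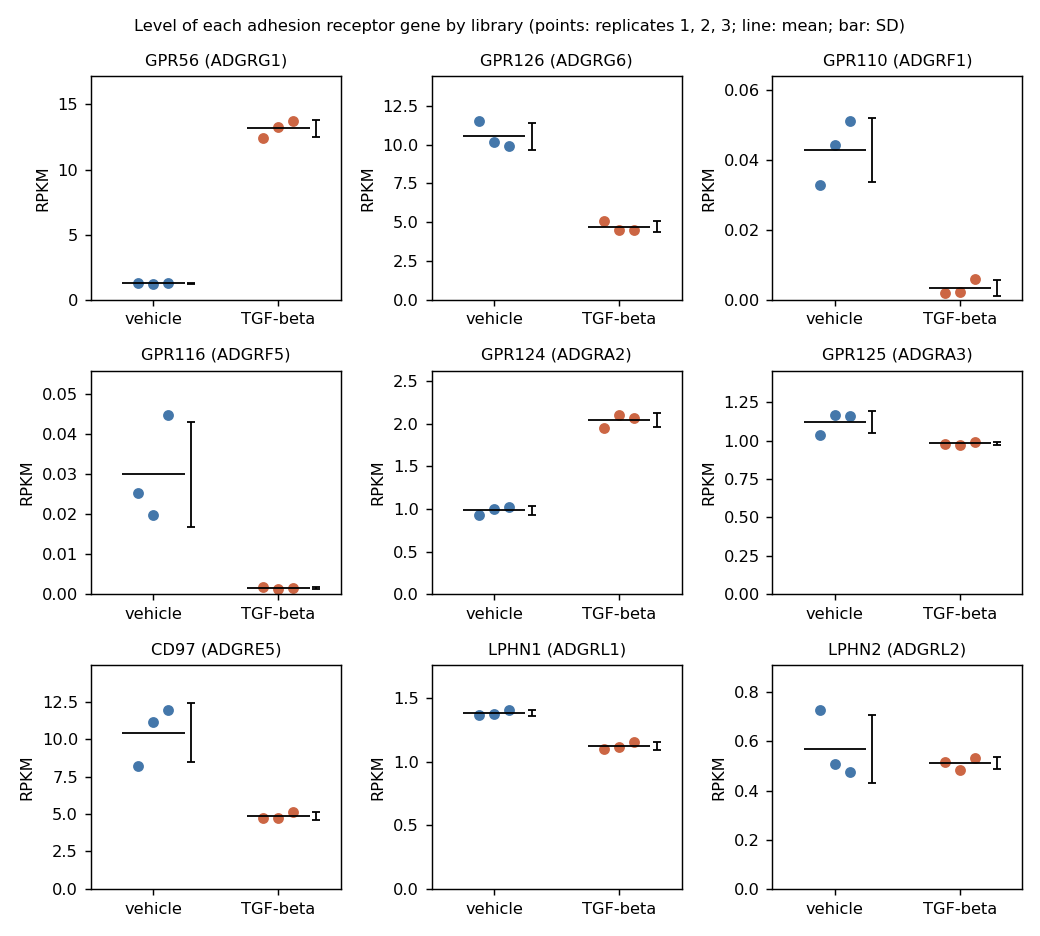
Authors' RPKM (vertical axis, linear, from 0, with its own scale in each panel) of the 9 adhesion receptor genes in the 3 vehicle and 3 TGF-beta libraries; points are replicates 1, 2 and 3, lines are means and bars are SD. GPR56 moved from 1.24 to 13.2 RPKM, and only the LPHN2 panel has conditions that overlap (in CPM those of GPR125 overlap too). Over all genes tested, the CPM of the conditions did not overlap for 52.3%, and that share was not computed for RPKM.

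GPR56 is a receptor for collagen III and for transglutaminase 2, known from brain cortex development and cytotoxic lymphocytes, and it signals through GNA12 and GNA13 to RhoA. The gene (ENSG00000205336) lies on chromosome 16, 57610652 to 57665580 in hg38. It measured 24.7, 23.3 and 25.2 CPM in vehicle replicates 1 to 3 and 259.95, 278 and 290.04 CPM in TGF-beta replicates 1 to 3. Each TGF-beta library thus stood far above each vehicle library, with a coefficient of variation of 4.02% in vehicle and 5.48% with TGF-beta. The log2 fold change was 3.50 (standard error, SE, 0.06), or 11.3-fold. It stayed between 3.46 and 3.54 when any 1 library was left out.

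GPR56 has another adhesion receptor gene beside it, as GPR97 (ADGRG3) starts 2.61 kb after it. GPR97 had 3, 4 and 7 reads in vehicle and 4 in each TGF-beta library. That was below the filter on low counts, and the read numbers of the conditions overlapped.

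GPR124, the other member that was higher, is known from brain blood vessels, where it serves WNT7 signalling together with RECK. The gene (ENSG00000020181) lies on chromosome 8. It measured 14.9, 16.3 and 16.5 CPM in vehicle against 33.2, 35.8 and 35.6 CPM with TGF-beta. The conditions were well separated, at a log2 fold change of 1.13 (SE 0.06), or 2.19-fold. Its end overlaps BRF2 on the opposite strand by 1629 bases, and BRF2 measured 19.5 CPM in vehicle against 20.8 CPM with TGF-beta. The sources used here do not give the strand setting of the counting, so reads from the shared bases may belong to either gene.

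GPR125 is the closest relative of GPR124 and, like it, binds the scaffold protein DLG1. The gene (ENSG00000152990) lies on chromosome 4, 22345071 to 22516054. GPR125 measured 21.9, 24.7 and 24.4 CPM in vehicle against 21.9, 21.7 and 22.3 CPM with TGF-beta. The lowest vehicle library lay inside the TGF-beta range, and the gene was not called, at a log2 fold change of -0.11 (SE 0.06). It was called lower without vehicle replicate 1 (-0.16) and with library totals alone (-0.23), a scaling that moves the median of all genes to -0.14.

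GPR126 is known for its part in myelination by Schwann cells, binds collagen IV, laminin-211 and the prion protein, and raises cAMP through GNAS. The gene (ENSG00000112414) lies on chromosome 6, 142301854 to 142446266. It measured 223, 198 and 191 CPM in vehicle against 104, 92.3 and 93.1 CPM with TGF-beta. Every vehicle library stood above every TGF-beta library. The log2 fold change was -1.08 (SE 0.07), so that vehicle held 2.11 times the level with TGF-beta, and it was -1.01 without vehicle replicate 1.

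CD97, a receptor of leukocytes and epithelium that binds CD55, THY1 and integrins, was the other abundant member that was lower. The gene (ENSG00000123146) lies on chromosome 19, 14380501 to 14408725. It measured 101, 137 and 146 CPM in vehicle against 61.1, 61.5 and 67.5 CPM with TGF-beta. Vehicle replicate 1 was the lowest of its group and still above all TGF-beta libraries. The log2 fold change was -1.02 (SE 0.15) and -1.16 without vehicle replicate 1. An antisense gene, CTC-548K16.5, overlaps it by 6007 bases and measured 9.32 CPM in vehicle against 4.47 CPM with TGF-beta, and without a known strand setting its reads cannot be told from those of CD97. CD97 also shares near-identical EGF-like repeats with EMR2 (ADGRE2), so the split of reads between them is uncertain.

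The latrophilins LPHN1 and LPHN2 are receptors for teneurins and FLRT proteins, best known at synapses. LPHN1 (ENSG00000072071) lies on chromosome 19, 174.3 kb from CD97, at 14147743 to 14206187. It measured 26.3, 26.7 and 27.1 CPM in vehicle against 22.4, 22.8 and 23.8 CPM with TGF-beta. The ranges were narrow and did not overlap, and the log2 fold change was -0.21 (SE 0.05), or 1.16 times more in vehicle. An antisense gene, CTB-55O6.12, overlaps LPHN1 and measured 3.57 CPM in vehicle against 3.17 CPM with TGF-beta.

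LPHN2 (ENSG00000117114, chromosome 1, 81306160 to 81992436) was not called. It measured 12.9, 9.0 and 8.37 CPM in vehicle against 9.68, 9.07 and 10.1 CPM with TGF-beta. Vehicle replicate 1 was the highest of the 6 libraries and vehicle replicate 3 the lowest. The log2 fold change was -0.06 (SE 0.16), and 0.14 without vehicle replicate 1.

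GPR110, a receptor for the lipid synaptamide, and GPR116, which limits surfactant in lung alveoli, are neighbours on chromosome 6, 42.8 kb apart. GPR116 (ENSG00000069122) spans 46852512 to 46954943 and GPR110 (ENSG00000153292) 46997703 to 47042363. Both were scarce in every library. GPR110 had 39, 71 and 75 reads in vehicle and 2, 3 and 7 reads with TGF-beta. Scaled to library size, its summed counts were 12.3 times higher in vehicle, with an exact 95% counting interval of 6.88 to 24.3. GPR116 had 16, 17 and 35 reads in vehicle and 1 read in each TGF-beta library. Its summed counts, 68 against 3, were 18.1 times higher in vehicle, with an interval of 5.94 to 89.98. These intervals cover counting error alone, not the spread between libraries. Both genes were chosen with these counts known and passed the filter through vehicle alone, so the intervals are no test. The lowest vehicle library held more reads than the highest TGF-beta library for both genes. Over all genes tested, the CPM of the conditions did not overlap for 52.3%. Fitted log2 fold changes were -3.57 (SE 0.37) for GPR110 and -4.04 (SE 0.60) for GPR116, and at such counts they depend on the prior count of the model. Without TGF-beta replicate 3, which held 7 of the 12 GPR110 reads of its group, the fitted value of GPR110 was -4.25.

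The same arm of chromosome 6 holds GPR111 (ADGRF2) and GPR115 (ADGRF4), 614 and 644 kb from GPR110. GPR115 had 103, 133 and 102 reads in vehicle and 415, 552 and 419 with TGF-beta. Its level rose by 2.35 on the log2 scale (SE 0.10), from 2.26 ± 0.260 CPM to 11.5 ± 0.687 CPM (SD, n = 3), with adjusted p = 6.02e-08. All adjusted p-values are Benjamini-Hochberg values of edgeR's quasi-likelihood test. GPR111 had 0, 1 and 0 reads in vehicle and 7, 13 and 4 with TGF-beta, and did not pass the filter on low counts. GPR111 and GPR115 overlap by 11934 bases on the same strand, so their reads may be mixed. In this gene cluster GPR110 and GPR116 were thus lower with TGF-beta and GPR115 was higher.

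Markers of other cell types that carry these receptors were measured beside them. GPR124 and GPR116 are known from blood vessels, and the 6 endothelial markers summed to 20.9 to 25.3 CPM in vehicle against 11.3 to 13.1 CPM with TGF-beta, mostly from KDR, while CDH5 averaged 0.0530 and 0.0597 CPM. Of these 6 markers, 3 were called lower (PECAM1, KDR and CLDN5) and none higher, where 20.4% of all genes were called lower and 19.7% higher. CD97 and GPR56 are known from leukocytes, and the 6 leukocyte markers summed to 15.6 to 15.8 CPM in vehicle against 11.4 to 13.1 CPM with TGF-beta, mostly CD68, which was not called (log2 -0.04), and CD14, the 1 called lower (-1.14). PTPRC and CD3E, which define leukocytes and T cells, averaged 0.0687 and 0.0119 CPM in vehicle and had no read with TGF-beta. The 6 fibroblast markers summed to 169 to 188 CPM and 269 to 289 CPM, mostly PDGFRB and THY1, and 3 were called higher and 1 lower, while LUM averaged 0.0421 CPM in vehicle and had no read with TGF-beta. The part of such cells in the receptor values was not tested.

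The order of the receptors by length-scaled level differed between the conditions. In vehicle, GPR126 (10.5 ± 0.885 RPKM, mean ± SD, n = 3) and CD97 (10.4 ± 1.96) led and overlapped with each other. They were followed by LPHN1 (1.38 ± 0.0221), GPR56 (1.24 ± 0.0555), GPR125 (1.12 ± 0.0717), GPR124 (0.986 ± 0.0527) and LPHN2 (0.570 ± 0.138), and no neighbours among these 5 overlapped. GPR110 (0.0429 ± 0.00930) and GPR116 (0.0299 ± 0.0131) came last and overlapped. With TGF-beta, GPR56 led at 13.2 ± 0.674 RPKM, ahead of CD97 (4.86 ± 0.251) and GPR126 (4.71 ± 0.335), which again overlapped. GPR124 (2.04 ± 0.0806) followed, above LPHN1 (1.12 ± 0.0293), GPR125 (0.982 ± 0.00956) and LPHN2 (0.512 ± 0.0255), without overlap between neighbours. GPR110 and GPR116 were last again, at 0.00336 ± 0.00228 and 0.00157 ± 0.000185 RPKM, which rest on 1 to 7 reads per library. Without vehicle replicate 1, CD97 stood above GPR126 in vehicle, and without TGF-beta replicate 3, GPR126 stood above CD97 with TGF-beta.

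Across the whole family of 33 human adhesion receptor genes, summed RPKM was 33.3 ± 0.794 in vehicle and 37.5 ± 0.845 with TGF-beta (mean ± SD, n = 3). GPR126 made up 29.2 to 35.7% of that sum in the vehicle libraries, CD97 25.4 to 35.2% and GPR56 3.52 to 3.87%. With TGF-beta, GPR56 made up 33.8 to 35.8%, CD97 12.6 to 13.4% and GPR126 11.8 to 13.9%. The sum was higher in every TGF-beta library than in any vehicle library, and the largest part was GPR126 or CD97 in vehicle and GPR56 with TGF-beta. These RPKM are scaled to the authors' library totals, not by TMM.

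**Figure D2:**
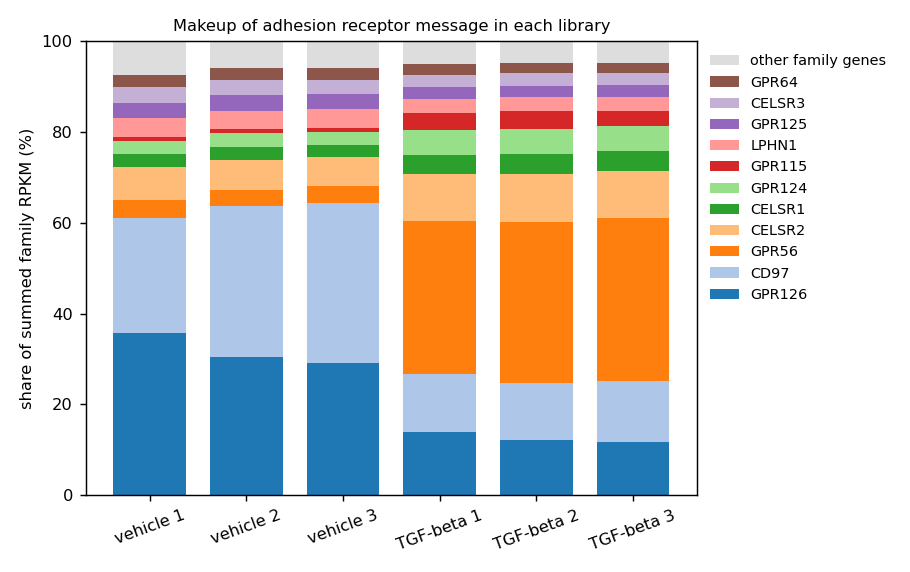
Share of the summed RPKM of the 33 adhesion receptor genes (vertical axis, %) taken by each gene in each of the 6 libraries (horizontal axis); stacked bars add to 100%, and genes not named are joined as other family genes. GPR56 takes 3.52 to 3.87% in the vehicle libraries and 33.8 to 35.8% in the TGF-beta libraries.

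Of the 24 family genes outside the 9, 11 passed the filter on low counts, 3 rose, 1 fell and 7 were not called, against 40.1% of all genes called. Their median log2 fold change was 0.07. GPR115, described above, had the largest rise. The flamingo cadherins CELSR1 and CELSR2, which set planar polarity in epithelial sheets, also rose. CELSR1 measured 26.7, 27.8 and 26.4 CPM in vehicle against 49.3, 50.4 and 53.8 CPM with TGF-beta, with a log2 fold change of 0.92 (SE 0.05, adjusted p = 3.03e-07 by edgeR). CELSR2 measured 67.1, 62.4 and 59.8 CPM in vehicle against 112, 118 and 121 CPM with TGF-beta, with a log2 fold change of 0.89 (SE 0.05, adjusted p = 5.42e-07 by edgeR). For both, all TGF-beta libraries stood above all vehicle libraries.

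Their relative CELSR3 was not called, at 34.5 ± 1.31 and 33.8 ± 0.201 CPM (log2 -0.03). EMR2, a close relative of CD97 known from myeloid cells, fell by 0.67 on the log2 scale (SE 0.18, adjusted p = 0.0120 by edgeR), from 1.61 ± 0.274 CPM to 1.01 ± 0.0594 CPM. Its edgeR adjusted p was 0.0598 without vehicle replicate 2 and 0.0566 without TGF-beta replicate 2. EMR2 overlaps ZNF333, which measured 5.38 CPM in vehicle, on the opposite strand by 1354 bases. It had 38 to 108 reads per library, against 2183 to 7725 for CD97, with which it shares near-identical EGF-like repeats. Whether EMR2 reads came from CD97 was not tested, so the fall of EMR2 is uncertain.

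The other 7 tested family genes were not called, CELSR3 included. LPHN3, the third latrophilin, had 21.9 CPM in vehicle replicate 1 against 11.2 to 11.6 CPM in the other 5 libraries, so that its log2 fold change of -0.36 became 0.02 without that library. GPR64 (20.4 ± 0.614 and 21.5 ± 0.463 CPM), BAI2 (10.7 ± 0.836 and 12.2 ± 0.560 CPM), the usherin partner GPR98 (0.935 ± 0.214 and 1.20 ± 0.192 CPM) and ELTD1 (0.691 ± 0.367 and 0.366 ± 0.0876 CPM) are given as vehicle and TGF-beta means ± SD, n = 3. The log2 fold change of GPR64 was 0.07, but -0.05 with library totals alone. The remaining 13 family genes did not pass the filter on low counts, and EMR1, EMR4P and GPR128 had none in any library.

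**Figure D3:**
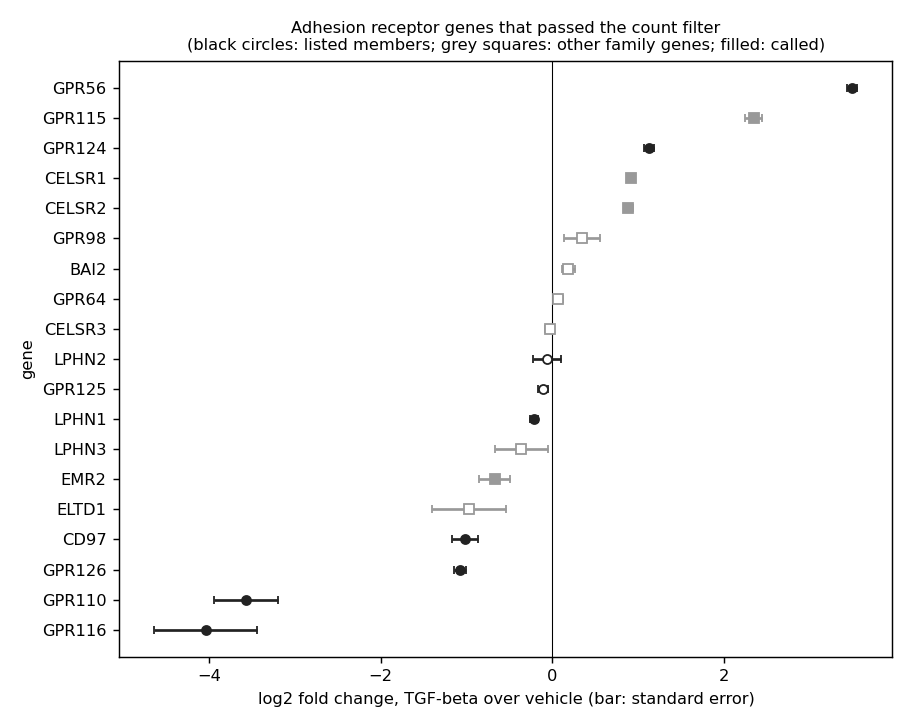
Log2 fold change of TGF-beta over vehicle (horizontal axis, bars are SE) for 19 of the 20 adhesion receptor genes tested (vertical axis); black circles are the 9 listed members, grey squares 10 others, and filled symbols were called. GPR56 lies farthest right at 3.50 and GPR116 farthest left at -4.04.

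Ligands and binding partners of the 9 receptors were taken from a list of 26 genes, of which 20 were tested, 9 rose, 2 fell and 9 were not called. Their median log2 fold change was 0.10, against -0.01 over all genes, and 40.1% of all genes were called. The collagen IV chains COL4A1 and COL4A2, which bind GPR126, had the largest rises, from 102 ± 2.76 to 738 ± 26.1 CPM (log2 2.85, SE 0.05, adjusted p = 1.09e-10 by edgeR) and from 346 ± 11.0 to 1057 ± 49.4 CPM (log2 1.61, SE 0.05, adjusted p = 4.12e-09 by edgeR). LAMC1, a laminin chain, also rose (log2 0.49), while LAMA2, the chain that makes laminin-211, measured 0.854 ± 0.00498 and 0.683 ± 0.108 CPM and was not called. The laminin chain LAMB1 (log2 -0.11) and the prion protein gene PRNP (0.20, adjusted p = 0.0714 by edgeR) were not called either. LAMB1 held 399, 583 and 576 CPM in vehicle replicates 1 to 3, against 478, 481 and 481 CPM with TGF-beta.

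Among the partners of GPR56, the transglutaminase gene TGM2 rose from 895 ± 143 to 1919 ± 46.7 CPM (log2 1.10, SE 0.12, adjusted p = 0.000470 by edgeR). COL3A1 averaged 0.0252 CPM in vehicle and had no read with TGF-beta. The tetraspanin CD9 fell from 141 ± 2.17 to 109 ± 3.43 CPM (log2 -0.37, SE 0.04, adjusted p = 6.40e-05 by edgeR), and CD81 was not called. Among the partners of CD97, the integrin gene ITGA5 rose from 286 ± 49.8 to 635 ± 14.5 CPM (log2 1.15, SE 0.12, adjusted p = 0.000544 by edgeR), with ITGB1 (0.59) and THY1 (0.36), and CD55 was not called, at 22.3 ± 0.972 and 21.5 ± 0.319 CPM.

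Of the latrophilin ligands, FLRT2 (log2 1.07) and the teneurin TENM3 (0.81) rose. FLRT1 (-0.07) and FLRT3 (-0.08) were not called. The negative value of FLRT3 rests on vehicle replicate 1. Its vehicle replicates 1 to 3 held 21.2, 12.8 and 11.8 CPM, against 14.7, 13.5 and 14.9 CPM with TGF-beta. For GPR124, RECK measured 29.9 ± 0.722 and 30.03 ± 0.887 CPM and was not called. WNT7B had 43.2 ± 13.0 and 25.8 ± 1.27 CPM and was not called (adjusted p = 0.0842 by edgeR). Its vehicle replicates 1 to 3 held 28.2, 50.0 and 51.4 CPM, all above the 25.4, 24.8 and 27.2 CPM with TGF-beta. DLG1, a partner of GPR124 and GPR125, fell by 0.23 on the log2 scale (adjusted p = 0.0417 by edgeR). That call was lost without TGF-beta replicate 1, 2 or 3 (adjusted p = 0.0722, 0.147 and 0.123 by edgeR). Without vehicle replicate 1, 17 genes of the list were called, 12 higher and 5 lower, of 22 tested. Calls over all genes also grew in that setting, from 8423 of 20992 to 10984 of 21781. Leaving out any 1 TGF-beta replicate gave 1 lower gene in the list.

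**Figure D4:**
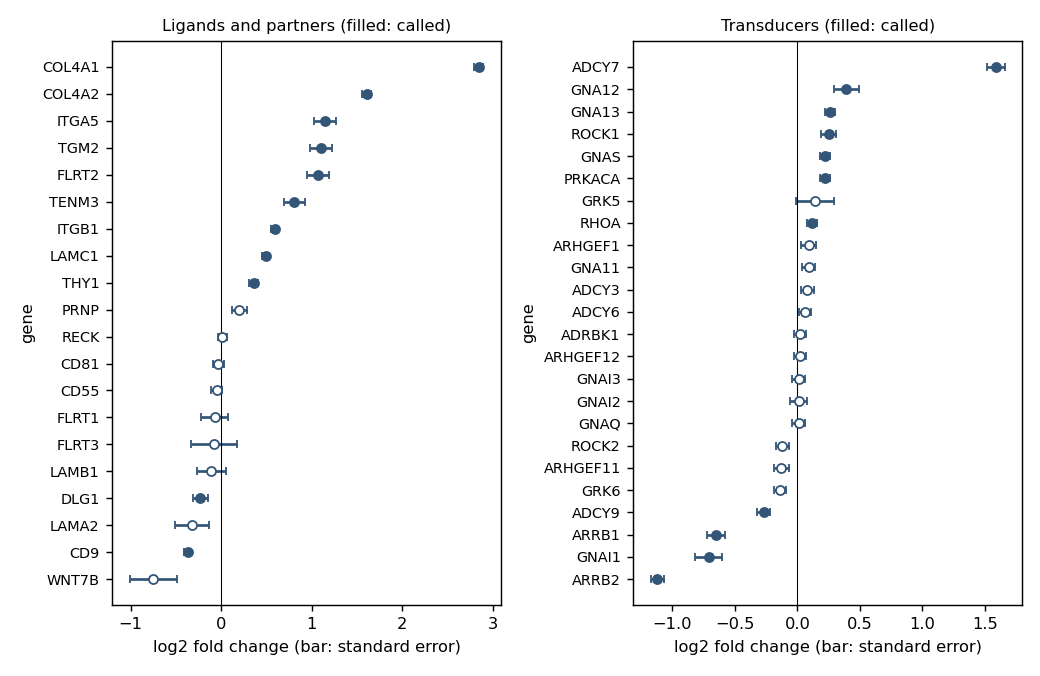
Log2 fold change of TGF-beta over vehicle (horizontal axes, bars are SE) for the 20 tested ligands and partners (left) and the 24 transducers (right) of adhesion receptors; filled circles were called. COL4A1 at 2.85 and ADCY7 at 1.59 lie farthest right, and WNT7B at -0.75 and ARRB2 at -1.12 farthest left.

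Genes that carry the signal inside the cell, from G proteins to arrestins, were taken from a list of 24, all tested: 7 rose, 4 fell and 13 were not called, at a median of 0.04 (log2). These 11 calls of 24 stand beside 40.1% called over all genes. ADCY7, an adenylyl cyclase that makes cAMP, rose from 18.7 ± 1.94 to 56.3 ± 2.26 CPM (log2 1.59, SE 0.07, adjusted p = 7.31e-08 by edgeR). GNA12 (log2 0.39), GNA13 (0.26) and the kinase gene ROCK1 (0.25) rose by less than 1.5-fold. Both arrestin genes, which end receptor signalling, fell: ARRB2 from 36.5 ± 0.579 to 16.8 ± 0.714 CPM (log2 -1.12, SE 0.05, adjusted p = 1.10e-07 by edgeR) and ARRB1 by 0.65 on the log2 scale. The inhibitory G protein gene GNAI1 (-0.71) and the cyclase gene ADCY9 (-0.27) fell too. With library totals alone 2 rose and 7 fell, and GNA12 (0.27) and ROCK1 (0.13) were then not called. GNA12 also lost its call without TGF-beta replicate 1, 2 or 3 (adjusted p = 0.0580, 0.0592 and 0.0778 by edgeR), and without vehicle replicate 1 there were 7 falls.

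For the 3 members of largest fold change, the genes of most similar pattern over the 6 libraries were listed. Likeness was measured as the distance in log2 CPM (prior count 2) after centring each gene. Only protein-coding genes outside the family were compared. Nearest to GPR56 were KIF26B (distance 0.214), the short-chain collagen gene COL8A2 (0.223) and ANGPTL4 (0.316), a secreted inhibitor of lipoprotein lipase. KIF26B, a kinesin family gene, measured 0.508 ± 0.0225 and 6.43 ± 0.132 CPM, and the log2 fold changes of these 3 genes were 3.66, 3.43 and 3.44. Nearest to GPR110 were C9orf152 (0.437), the water channel gene AQP5 (0.578) and SNTB1 (0.860), with log2 fold changes of -3.48, -3.63 and -3.10 beside -3.57 for GPR110. AQP5 measured 6.81 ± 2.14 CPM in vehicle against 0.550 ± 0.199 CPM with TGF-beta. Nearest to GPR116 were CAMK2B (0.567), ENTPD8 (0.779) and CDK15 (0.782). Their fitted log2 fold changes were -3.17, -2.46 and -2.62, beside -4.04 for GPR116. A prior count of 2 shrinks the fall of a gene with few TGF-beta reads more than the fit does. GPR116 had 1 such read per library, and GPR110 had 2, 3 and 7. The sizes for GPR110 and GPR116 are therefore not compared with those of their nearest genes.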

How the data were processed

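RNA of 6 H69 samples, 3 vehicle and 3 TGF-beta by their titles, was analysed from 1 deposited table of 64253 genes. Per the submitters' processing notes, the tools were bcl2fastq, STAR 2.6.1 and featureCounts of Subread, with build hg38. Each count column gives the whole number of reads on a gene, as deposited and without normalization. The RPKM columns are the authors' own, per the file headers. The strand setting, multi-mapped reads and annotation release are not given in the sources used here.

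Counts were fitted in R 4.3.3 with edgeR 4.0.16 (which gives log2 fold changes, TMM, filterByExpr with a minimum count of 10, robust quasi-likelihood test), with Benjamini-Hochberg adjustment over the 20992 genes passing, called under 0.05. The SE is the log2 fold change over the square root of F. The steps were tested on simulated data in which few genes changed, so scaling under a change as broad as the one here was not checked. Replicate pairs differed by more than sampling noise (lowest ratio of chi-square to degrees of freedom, 2.50). The reads behind 1 CPM ranged from 35.7 to 56.2.

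The members and lists were chosen with earlier results of these data known. Named genes were all members, other family genes called or at 1 CPM or more in a condition, family genes within 1 megabase of a member, up to 4 called rises and 4 called falls per list, and 3 nearest genes for each of 3 members. List genes named beyond these, and ELTD1 and the marker genes, were chosen after their values were seen. Alternatives were RLE factors, library totals, other filters, DESeq2 1.42.0, limma 3.58.1 on log2(RPKM + 1) and log2(RPKM + 0.1), the replicate number as a block, and leaving out each library. Strands and exons come from GENCODE release 29, on the same genome build. A few items that these rules cover are not reported here.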

Additional observations from a re-analysis of the deposited data

How the results depend on the processing

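Calls for GPR56, GPR124, GPR126, CD97 and LPHN1 kept their direction and their side of the threshold under all 15 alternatives, and GPR110 and GPR116 under the 12 that tested them. All of these alternatives use the same 6 libraries, whose values were known when the members were chosen, so they add no support for any member. For GPR110 and GPR116 the 12 also refit the same few reads. Limma on log2(RPKM + 1) without the RPKM filter gave them log2 fold changes of -0.06 and -0.04. With at least 1 CPM in 3 samples, or limma on log2(RPKM + 1) or log2(RPKM + 0.1) with a mean RPKM of at least 0.5, those 2 genes are not tested and 3 members were lower in place of 5. In both limma fits 3 family genes were lower in place of 6, 7 transducers were lower in place of 4, and 2406 and 2402 genes were higher in place of 4145. Without the RPKM filter, limma gave 1 lower ligand or partner, 3 higher transducers and 2367 higher genes. Library totals alone gave 4 lower ligands and partners in place of 2, 2 higher and 7 lower transducers in place of 7 and 4, and 2698 higher and 7282 lower genes in place of 4145 and 4278, so that 27.0% of calls were higher rather than 49.2%. Leaving out 1 library gave 10 to 17 called ligands and partners (1 to 5 lower), 4 to 7 lower transducers and 6259 to 10984 called genes. The fewer falls among members and family come from GPR110, GPR116 and EMR2 not being tested there, and for the other differences the cause was not tested. Of the 481 values for single named genes under alternatives, 16 lost their call and 5 gained one. The numbering of replicates gave no clear pairing of the samples. Same-numbered libraries deviated with correlations of 0.065, 0.062 and 0.013. These were the highest for TGF-beta replicates 1 and 2, while TGF-beta replicate 3 correlated best with vehicle replicate 2 (0.014). With 3 libraries per condition such correlations cannot settle whether samples were paired. With the replicate number as a block, 8577 genes were called in place of 8423, and 7 members in both fits. Without the filter on low counts edgeR tested 30 family genes and called 13 (6 higher, 7 lower), in place of 11 of 20. Depth limits GPR110 and GPR116 most, with 12 and 3 reads in all with TGF-beta.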
